A study of Mus musculus with 6 samples.

Results

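Amino acid and neurotransmitter carriers of the Slc1, Slc3, Slc6, Slc7, Slc36, Slc38 and Slc43 families were measured in mouse sciatic nerve. Members were the array probes whose gene name begins with Slc1a, Slc3a, Slc6a, Slc7a, Slc36a, Slc38a or Slc43a, kept where the scanner flagged them well above background on every array of 1 group or both. The names matched 84 probes of 65 genes, and 52 probes of 44 genes were kept, of 24260 probes of 19039 genes kept on the whole array. Of the 44 genes, 2 (Slc36a1os and Slc7a6os) are opposite-strand genes named after a carrier, which leaves 42 carriers. The tested group was 3 pools of OGT_SCKO sciatic nerve and the comparison group 3 pools of Ctrl nerve from littermates, all aged 1 month and all on a background that the labels write as C56 BL6. The labels also call the mutants OGT-KO mice, and the series title places the gene in Schwann cells, the myelinating glia of peripheral nerve. The promoter that drives the deletion and the number of animals in a pool are not given in the sources used here. Every pool was hybridised to 1 array, so p-values measure the spread between pools and the number of arrays limits the precision.

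Amino acids cross cell and lysosome membranes on carriers that differ in substrate and driving force. Slc7 light chains need a heavy chain of the Slc3 family to reach the surface, and such pairs exchange one amino acid for another. Slc1 carriers take up glutamate or exchange small neutral amino acids, Slc6 carriers bring in transmitters, taurine, creatine, glycine and proline with sodium and chloride, and Slc38 carriers move glutamine and other small neutral amino acids. Some Slc36 carriers work with protons, and several of the family sit on lysosomes, where amino acid supply is reported to the growth kinase mTORC1. In peripheral nerve, glial cells clear glutamate and GABA around axons and use amino acids for growth and myelin protein.

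The values are log2 of the scanner's processed signal minus the 75th percentile of the same array, so that 0 is the signal that 75% of the spots do not exceed. They compare 1 probe between pools and do not compare one gene with another. Ogt checked the labels. Its probe on chromosome X (98879145 to 98879204, mm9) read -0.89, -1.01 and -1.01 in OGT_SCKO pools 1, 2 and 3, against 0.46, 0.35 and 0.11 in Ctrl pools 1, 2 and 3, which is 41.3% of the Ctrl level (limma adjusted p = 0.00117). Ogt did not overlap between the groups. A second kept Ogt probe read 50.5% of the Ctrl level, also without overlap (limma adjusted p = 0.0241, fit over all kept probes). The tissue's own markers were measured, with 7 of 7 Schwann cell genes above background. All 3 OGT_SCKO arrays and Ctrl 2 lay on 1 slide and Ctrl 1 and Ctrl 3 on the other, so a fit with slide as a block sets OGT_SCKO against Ctrl 2 alone. Skeletal muscle markers were lower in OGT_SCKO in 5 of 5 measured genes, adipocyte markers in 5 of 6, Schwann cell markers in 2 of 7, perineurial markers in 2 of 5, and endothelial markers in 1 of 7, while macrophage markers were higher in 3 of 7. Over all genes tested, 12.1% were lower and 11.2% higher. In whole nerve, fewer cells of a type and less RNA per cell cannot be told apart.

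The probes behind the main results show which transcript stretch each value reports. The first 30 of the 60 bases of each probe are given 5′ to 3′ in the sense of the transcript, with mm9 positions of the whole probe from the files. Exons and UTRs of mm9 were not annotated here. Slc7a4, Slc43a3 and Slc38a4 are shown as the carriers with the smallest p, and Slc38a9 because several probes of the gene were read.
Slc7a4 kept probe, minus strand, chr16:17573049-17573108: ggaagtggcttcagcccctgagacccagaa
Slc7a4 dim probe, minus strand, chr16:17572241-17572300: attagtgcatgagtgatacacttgggtatg
Slc43a3 kept probe, plus strand, chr2:84797987-84798046: tttgatgatccagtatctacaaagactgcc
Slc38a4 kept probe, minus strand, chr15:96825482-96825541: ctaacctggaagtatccacttgtgtagtta
Slc38a9 probe 1, plus strand, chr13:113524569-113524628: ggaagaggctgttttaaagggaaatgcttc
Slc38a9 probe 2, plus strand, chr13:113523042-113523101: gcttctgacaagatgactgagaaatgcaga
Slc38a9 probe 3, plus strand, chr13:113528693-113528752: cacactcatctctttccgctttaataataa

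Transporter genes changed in both directions in OGT_SCKO nerves. The carriers that rose were Slc7a4, Slc38a4, Slc38a5, Slc6a15, Slc1a3, Slc1a6 and Slc36a4. Those that fell included Slc43a3, Slc6a3, Slc6a9, Slc6a20a, Slc3a2, Slc38a7 and Slc38a9. Of the 44 genes, 15 passed the limma test at an adjusted p under 0.05 (34.1%), where 23.3% of all 19039 genes tested did. The 7 that were higher are 15.9% of the members, beside 11.2% of all genes, and the 8 that were lower are 18.2%, beside 12.1% of all genes. A change of at least 2-fold was called in 5 members, beside 6.71% of all genes. Slc6a3, Slc38a5 and Slc36a4 were kept only through the group in which they were brighter. Among the 40 members well above background on all 6 arrays, 5 were higher and 8 lower, Slc36a2 with them, where 22.6% of all such genes were called. The 3 OGT_SCKO pools lay wholly above or below the 3 Ctrl pools in 29 of the 44 (65.9%), where 45.7% of all genes did so. The median log2 fold change was -0.21 over the members and -0.07 over all genes tested. With slide as a block, Slc7a4 and Slc38a4 stayed higher and Slc43a3 and Slc6a20a were among the 3 that stayed lower, where 6.44% of all genes were called. On the shared slide alone, where Ctrl 2 is the only control pool and is assumed to vary like the OGT_SCKO pools, 2.14% of all genes were called. Slc7a4 was the 1 member called there (log2 fold change 2.86, limma adjusted p = 0.0199).

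**Figure D1:**
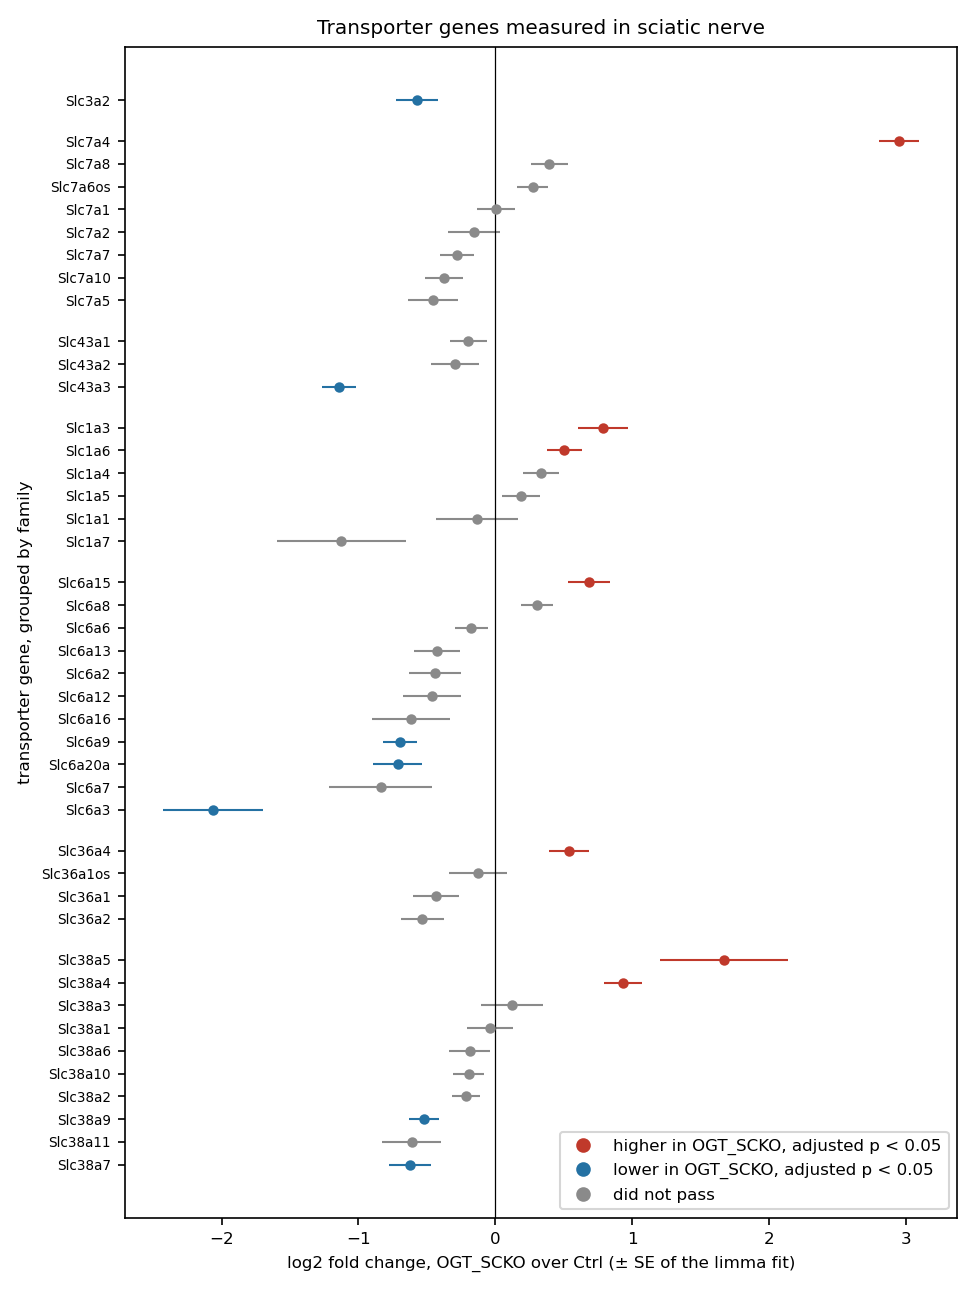
Log2 fold change of OGT_SCKO over Ctrl (horizontal axis, ± SE of the limma fit, n = 3 pools each) for 43 of the 44 genes, grouped by family down the page and coloured by call. Slc7a4 lies farthest right at 2.95 and Slc6a3 farthest left at -2.06, and 29 genes in grey did not pass the test.

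**Figure D2:**
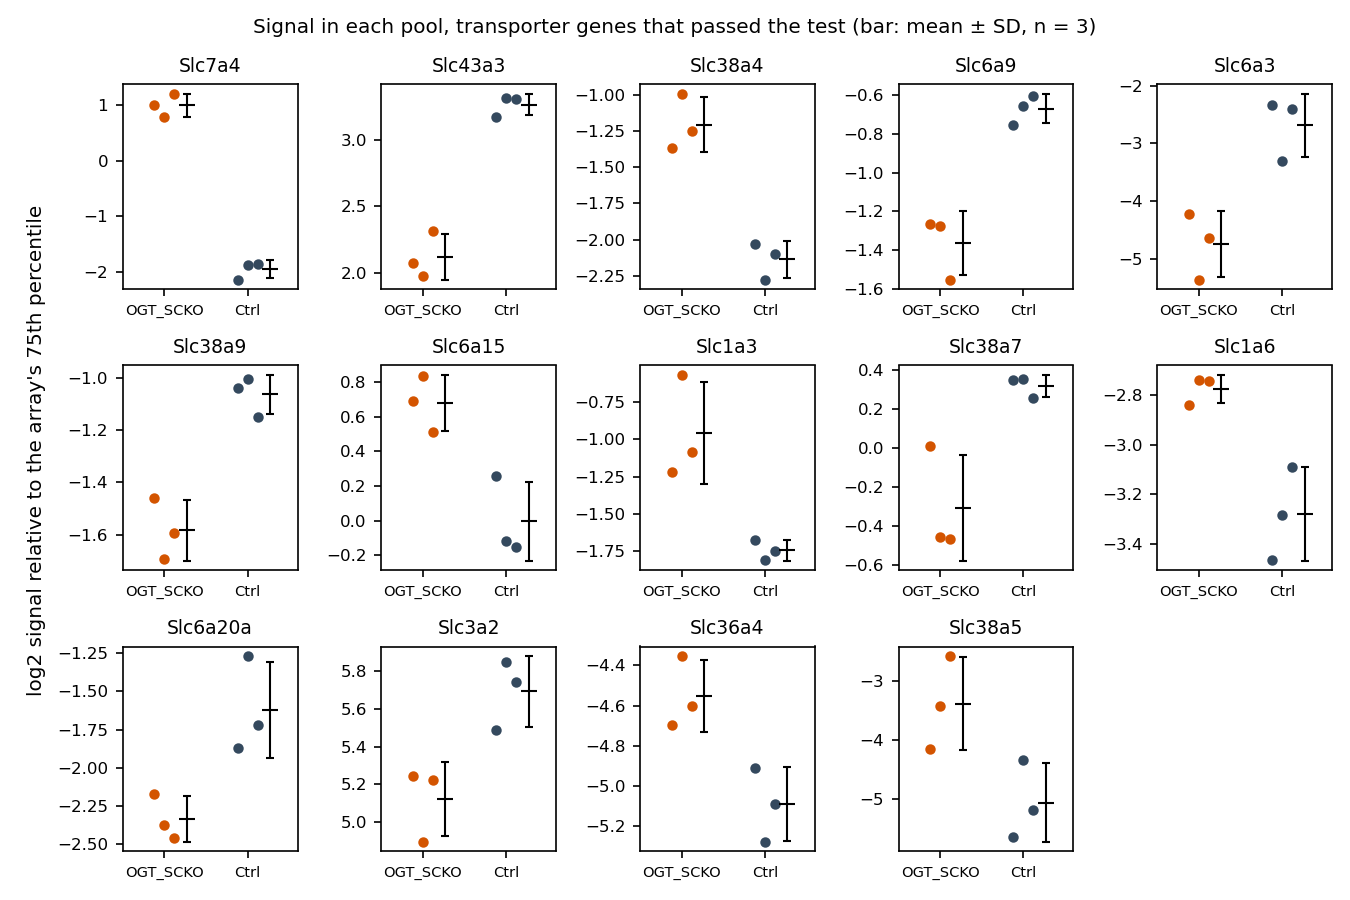
Signal of each pool (points, pools 1 to 3 from left to right, log2 relative to the array's 75th percentile) for 14 genes that passed, OGT_SCKO left and Ctrl right, with the mean ± SD (n = 3) beside the points; each panel has its own vertical axis. The groups do not overlap in any of the 14 panels.

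The heavy chain that escorts the exchangers to the surface was lower. Slc3a2, known as CD98 or 4F2hc, read 5.25, 4.90 and 5.22 in OGT_SCKO pools, against 5.49, 5.85 and 5.75 in Ctrl pools. The groups did not overlap, with Ctrl 1 the nearest of its group to the mutants. Slc3a2 fell by 0.57 on the log2 scale (± 0.15 SE, adjusted p = 0.0382 by limma), 1.49-fold. With quantile normalisation the log2 fold change was -0.28 (adjusted p = 0.149), and the call ended without OGT_SCKO 2, OGT_SCKO 3 or any 1 of the 3 Ctrl pools (adjusted p 0.0503 to 0.124) and with slide as a block (0.109).

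The light chains that pair with it did not pass. Slc7a5, the LAT1 exchanger that brings in leucine and other large neutral amino acids, read -0.68, -0.03 and -0.21 in OGT_SCKO pools, against 0.21, 0.00 and 0.23 in Ctrl pools. The groups did not overlap, although OGT_SCKO 2 lay next to Ctrl 2. Its log2 fold change was -0.45 (± 0.18 SE, adjusted p = 0.122 by limma). A second Slc7a5 probe, 25800 bases away, gave -0.36 (adjusted p = 0.342 in the fit over all kept probes), and the mean of both probes passed (-0.41, adjusted p = 0.0398). Slc7a8, the LAT2 exchanger, had a log2 fold change of 0.40 (adjusted p = 0.0772; 0.0498 with slide as a random block). Slc7a7, the y+LAT1 chain that exports cationic amino acids, had -0.28 (0.146), and Slc7a10, the Asc-1 exchanger of glycine and serine, had -0.37 (0.0955). Asc-1 is also known as a surface protein of white fat cells. Summed signal of the 6 measured adipocyte markers ran from 0.223 to 1.08 times the 75th percentile in OGT_SCKO pools, against 1.90 to 9.53 in Ctrl pools, and its part in the Slc7a10 value was not tested. Slc7a11, the cystine and glutamate exchanger xCT, had no array on which its probe was well above background, so its level was not measured.

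Slc7a4 showed the largest change of the members. It is classed by sequence with the cationic amino acid transporters, and its substrate is not established. It read 1.01, 0.79 and 1.20 in OGT_SCKO pools, against -2.14, -1.87 and -1.85 in Ctrl pools. The groups lay far apart relative to their spread, which was 0.21 in OGT_SCKO pools and 0.16 in Ctrl pools (SD, n = 3 each). Slc7a4 rose 7.73-fold (log2 fold change 2.95 ± 0.15 SE, adjusted p = 0.00018 by limma). Among all genes tested it ranked 37 by p and 95 by the size of its change. It passed under each of 19 alternative settings, with slide as a block among them (log2 fold change 2.86, adjusted p = 0.0050). A second probe, 748 bases from the first, had no array well above background, so the change rests on 1 probe. The established cationic carriers did not pass: Slc7a1, or CAT1, had a log2 fold change of 0.01 (adjusted p = 0.979), and Slc7a2, or CAT2, had -0.15 (0.576).

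All 3 Slc43 genes had negative log2 fold changes and 1 of them passed. Slc43a3 moves purine nucleobases in human cells and, unlike its relatives, is not known as an amino acid carrier. It read 2.07, 1.98 and 2.31 in OGT_SCKO pools, against 3.17, 3.32 and 3.31 in Ctrl pools. The highest OGT_SCKO pool lay well under the lowest Ctrl pool. Slc43a3 fell 2.21-fold (log2 fold change -1.14 ± 0.12 SE, adjusted p = 0.0018 by limma), and with slide as a block it was 2.29-fold lower (adjusted p = 0.0276). The gene is known from vessel endothelium. Summed signal of the 7 endothelial markers ran from 18.1 to 22.7 in OGT_SCKO pools, against 26.4 to 29.9 in Ctrl pools, with 1 of the 7, Egfl7, lower by the test. Its part in the Slc43a3 result was not tested. Slc43a1 and Slc43a2, the facilitative LAT3 and LAT4 carriers of large neutral amino acids, had log2 fold changes of -0.20 (adjusted p = 0.312) and -0.29 (0.259).

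Glutamate carriers of the Slc1 family were higher where they passed. Slc1a3, or GLAST, the sodium-driven glutamate and aspartate carrier of astrocytes and other glia, read -1.22, -0.57 and -1.08 in OGT_SCKO pools, against -1.67, -1.81 and -1.75 in Ctrl pools. OGT_SCKO 2 was the highest pool and the groups did not overlap. Slc1a3 rose 1.73-fold (log2 fold change 0.79 ± 0.18 SE, adjusted p = 0.0246 by limma). The call ended without OGT_SCKO 3 or any 1 Ctrl pool (adjusted p 0.0661 to 0.0832) and with slide as a block (0.127). Reactive macrophages also express the gene. Summed macrophage marker signal ran from 40.1 to 50.2 in OGT_SCKO pools, against 39.0 to 45.7 in Ctrl pools, with Cx3cr1, Trem2 and Ctss higher by the test among 7 markers. Its part in the Slc1a3 result was not tested.

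Slc1a6, or EAAT4, is a glutamate carrier best known from cerebellar Purkinje cells. It read -2.84, -2.74 and -2.74 in OGT_SCKO pools, against -3.47, -3.28 and -3.09 in Ctrl pools. The OGT_SCKO pools were close together and all above the Ctrl pools. Slc1a6 rose 1.42-fold (log2 fold change 0.50 ± 0.13 SE, adjusted p = 0.0328 by limma), and the call ended without OGT_SCKO 2, OGT_SCKO 3, Ctrl 1 or Ctrl 2 (adjusted p 0.0564 to 0.115), with normexp background correction (0.150) and with slide as a block (0.179).

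The other Slc1 genes did not pass. Slc1a5, or ASCT2, which exchanges glutamine and other neutral amino acids, read 3.89, 3.52 and 3.74 in OGT_SCKO pools, against 3.37, 3.61 and 3.61 in Ctrl pools. The groups overlapped, and the log2 fold change was 0.19 (adjusted p = 0.341). A second Slc1a5 probe gave 0.17 (0.516). Slc1a4, or ASCT1, the serine and alanine exchanger of the same branch, had 0.33 (0.117). Slc1a7, or EAAT5, a retinal glutamate carrier, had a log2 fold change of -1.13 (0.130) with OGT_SCKO 2 at -4.63, under the other OGT_SCKO pools at -2.73 and -2.97 and the Ctrl pools at -2.41, -2.22 and -2.32. Without OGT_SCKO 2 it was -0.53 and passed (0.0323). Slc1a1, the neuronal carrier EAAC1, had -0.13 (0.768), and Slc1a2, the astrocyte carrier GLT-1, had no array well above background with any of its 3 probes.

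Slc6a13 and Slc6a12, GABA carriers that also take taurine or betaine, did not pass, with log2 fold changes of -0.42 (limma adjusted p = 0.115) and -0.46 (0.162). Slc6a11, the astrocyte carrier GAT3, was well above background on 1 OGT_SCKO array and no Ctrl array and was not tested.

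A glycine carrier and a proline carrier were lower. Slc6a9, or GlyT1, the glial glycine carrier, read -1.27, -1.27 and -1.55 in OGT_SCKO pools, against -0.75, -0.65 and -0.60 in Ctrl pools. The groups did not overlap and OGT_SCKO 3 was the lowest pool. Slc6a9 fell 1.62-fold (log2 fold change -0.70 ± 0.12 SE, adjusted p = 0.0097 by limma), and with slide as a block the adjusted p was 0.0900. A second probe that shares 51 bases with the first gave -0.45 (adjusted p = 0.0921 in the fit over all kept probes).

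Slc6a20a, or SIT1, carries proline and related imino acids. It read -2.17, -2.37 and -2.46 in OGT_SCKO pools, against -1.87, -1.27 and -1.72 in Ctrl pools. Ctrl 2 was the highest pool, and the groups did not overlap. Slc6a20a fell 1.64-fold (log2 fold change -0.71 ± 0.18 SE, adjusted p = 0.0335 by limma) and was 2.09-fold lower with slide as a block (adjusted p = 0.0337). The call ended without OGT_SCKO 2, OGT_SCKO 3, Ctrl 2 or Ctrl 3 (adjusted p 0.0584 to 0.118) and with normexp background correction (0.115). Slc6a7, the brain proline carrier, had a log2 fold change of -0.84 (0.150) and passed without OGT_SCKO 1 (-1.18, adjusted p = 0.0414).

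Slc6a15, or B0AT2, a sodium-driven carrier of branched-chain amino acids and proline known from neurons, was the member of its family that rose. It read 0.69, 0.84 and 0.51 in OGT_SCKO pools, against 0.26, -0.12 and -0.15 in Ctrl pools. There was no overlap between the groups, with Ctrl 1 the nearest to the mutants. Slc6a15 rose 1.61-fold (log2 fold change 0.69 ± 0.15 SE, adjusted p = 0.0234 by limma), and the call ended without OGT_SCKO 3, Ctrl 2 or Ctrl 3 (adjusted p 0.0522 to 0.0903) and with slide as a block (0.102).

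Among monoamine carriers, Slc6a3, the dopamine carrier DAT, read -4.23, -5.37 and -4.64 in OGT_SCKO pools, against -2.33, -3.31 and -2.41 in Ctrl pools. It was dim in the mutants, with 2 of 3 OGT_SCKO arrays well above background, and the groups did not overlap. Slc6a3 fell (log2 fold change -2.06 ± 0.37 SE, adjusted p = 0.0101 by limma), and its measured fold of 4.17 rests partly on signal at background. With normexp background correction it was 2.15-fold lower (adjusted p = 0.142), and with slide as a block 2.70-fold lower (0.103). Slc6a2, the noradrenaline carrier of sympathetic axons, had a log2 fold change of -0.44 (0.140). Slc6a4, the serotonin carrier, was well above background on 2 OGT_SCKO arrays and no Ctrl array and was not tested.

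Slc6a6, the taurine carrier, read 2.36, 2.15 and 2.22 in OGT_SCKO pools, against 2.40, 2.56 and 2.29 in Ctrl pools. The groups overlapped, and its log2 fold change was -0.18 (adjusted p = 0.309). Slc6a8, the creatine carrier, had 0.31 (0.101), and Slc6a16, a relative with no established substrate, had -0.62 (0.159).

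Small neutral amino acid carriers of the Slc38 family split by direction. Slc38a4, or SNAT4, a sodium-driven carrier of small neutral and cationic amino acids that is abundant in liver and placenta, read -1.37, -0.99 and -1.25 in OGT_SCKO pools, against -2.03, -2.28 and -2.10 in Ctrl pools. There was no overlap between the groups. Slc38a4 rose 1.91-fold (log2 fold change 0.93 ± 0.14 SE, adjusted p = 0.0055 by limma), and 2.11-fold with slide as a block (adjusted p = 0.0381).

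Slc38a5, or SNAT5, moves glutamine, serine and glycine in either direction. It read -4.16, -3.43 and -2.58 in OGT_SCKO pools, against -5.65, -4.35 and -5.19 in Ctrl pools. The lowest OGT_SCKO pool lay just above Ctrl 2, and 1 of 3 Ctrl arrays was well above background. Slc38a5 rose (log2 fold change 1.67 ± 0.47 SE, adjusted p = 0.0453 by limma), and its measured fold of 3.19 rests on Ctrl signal mostly at background. With slide as a block it was 1.94-fold higher (adjusted p = 0.305), and the call ended without OGT_SCKO 2, OGT_SCKO 3, Ctrl 1 or Ctrl 3 (adjusted p 0.0717 to 0.131).

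The Slc38 genes that fell encode lysosomal proteins. Slc38a9 is the arginine sensor that reports lysosomal amino acids to mTORC1. Its brightest probe read -1.46, -1.69 and -1.59 in OGT_SCKO pools, against -1.04, -1.01 and -1.15 in Ctrl pools. There was no overlap between the groups. Slc38a9 fell 1.43-fold (log2 fold change -0.52 ± 0.11 SE, adjusted p = 0.0190 by limma), and its other probes gave -0.52 (adjusted p = 0.0127) and -0.40 (0.285) in the fit over all kept probes. The call ended without OGT_SCKO 3 or any 1 Ctrl pool (adjusted p 0.0573 to 0.0803), with normexp (0.0766) and with slide as a block (0.110).

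Slc38a7, or SNAT7, exports glutamine and asparagine from lysosomes in human cells. It read 0.01, -0.46 and -0.47 in OGT_SCKO pools, against 0.35, 0.35 and 0.26 in Ctrl pools. OGT_SCKO 1 was the nearest to the Ctrl pools, and the groups did not overlap. Slc38a7 fell 1.54-fold (log2 fold change -0.62 ± 0.15 SE, adjusted p = 0.0309 by limma), and the call ended without OGT_SCKO 2, OGT_SCKO 3 or any 1 Ctrl pool (adjusted p 0.0572 to 0.113) and with slide as a block (0.157).

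Slc38a2, or SNAT2, the carrier that cells make more of when amino acids are short, read 2.98, 2.84 and 2.99 in OGT_SCKO pools, against 3.07, 3.18 and 3.21 in Ctrl pools. There was no overlap between the groups, but the difference of -0.21 on the log2 scale did not pass (± 0.10 SE, adjusted p = 0.173 by limma). Slc38a1, its close relative SNAT1, had -0.04 (0.889) with 1 probe and 0.19 (0.279) with another. The glutamine carrier Slc38a3 had 0.12 (0.712). Slc38a6, Slc38a10 and Slc38a11, whose roles are less settled, had -0.19 (0.371), -0.19 (0.251) and -0.61 (0.0840).

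Carriers of the Slc36 family gave 1 call. Slc36a4, or PAT4, a carrier of proline and tryptophan in frog egg studies of the human protein, read -4.70, -4.35 and -4.60 in OGT_SCKO pools, against -4.91, -5.28 and -5.09 in Ctrl pools. Its signal was near background, with 2 of 3 Ctrl arrays well above it, so its measured fold rests partly on signal at background. A second probe of the gene had no array well above background. The groups did not overlap with the kept probe. Slc36a4 rose 1.45-fold (log2 fold change 0.54 ± 0.15 SE, adjusted p = 0.0415 by limma), and the call ended without OGT_SCKO 2, OGT_SCKO 3 or any 1 Ctrl pool (adjusted p 0.0604 to 0.128), with median scaling (0.0504), with normexp (0.363) and with slide as a block (0.0951). Slc36a1, or PAT1, the lysosomal carrier of glycine, alanine and proline, had -0.43 (0.111) with its brighter probe and -0.53 (0.139) with the other, and it passed without OGT_SCKO 1 (-0.56, 0.0444).

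Slc36a2, or PAT2, a glycine and proline carrier known as a surface marker of brown fat cells, lay closest to the threshold without passing it. It had a log2 fold change of -0.53 (± 0.16 SE, adjusted p = 0.0511 by limma) and passed under 9 of the alternatives, median scaling among them (adjusted p = 0.0380). With slide as a block its adjusted p was 0.153. The adipocyte markers given with Slc7a10 were lower in the same pools, and their part in this value was not tested.

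**Figure D3:**
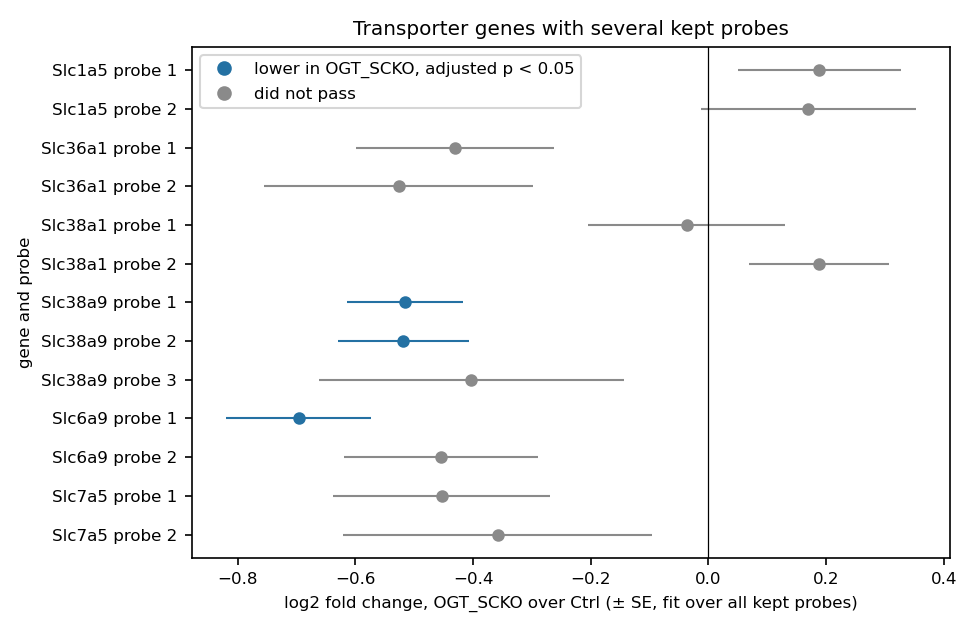
Log2 fold change of OGT_SCKO over Ctrl (horizontal axis, ± SE, fit over all kept probes) for each of 13 kept probes of 6 genes with several, by gene down the page. Probes of Slc38a9, Slc7a5, Slc36a1 and Slc1a5 lie near each other, while Slc38a1 has probes on both sides of 0.

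Several probes were compared for 6 genes, and they showed how far 1 probe can stand for a gene. In the fit over all kept probes, 3 of these 13 probes passed, where 23.5% of all kept probes did. They were the brighter probe of Slc6a9 and a pair of the 3 Slc38a9 probes. All probes of 5 of the 6 genes had the same sign, and the probes of Slc38a1 had opposite signs, with neither passing.

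The genes that did not pass leaned to lower values. Of 29, 22 had a negative log2 fold change and 7 a positive one, and the values ran from -1.13 in Slc1a7 to 0.40 in Slc7a8. Over all members 68.2% were negative, where 56.7% of all genes tested were. In 14 of the 29 (48.3%) the groups did not overlap although the test was not passed, beside 29.2% of all genes that did not pass. OGT_SCKO 2 was the lowest of its group in 17 of the 30 members with a negative value and in 65.3% of all genes with one. The median SD over pools of the members was 0.21 in OGT_SCKO and 0.14 in Ctrl, and over all genes it was also 0.21 and 0.14. Of the 44 members, 40 were well above background on all 6 arrays. The other 4 were Slc6a3, Slc36a4, Slc38a5 and Slc1a1. Slc6a3, Slc36a4 and Slc38a5 entered through the group in which they were brighter. Slc1a1 entered through OGT_SCKO, where its mean of -4.33 lay under the Ctrl mean of -4.19.

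Of the 65 genes, 21 had no probe that was kept. In 15 of them no probe was well above background on any array, and these include Slc7a11, Slc1a2, the glycine carrier Slc6a5 of inhibitory neurons, and the kidney and gut carriers Slc3a1, Slc7a9, Slc6a18 and Slc6a19. The other 6, Slc36a3, Slc38a8, Slc6a11, Slc6a4, Slc7a3 and Slc7a6, reached that flag on 1 to 3 of the 6 arrays without covering a group.

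Genes that make, break down or sense the carried amino acids were read beside the carriers from 8 lists. Over all genes tested, 11.2% were higher and 12.1% lower by the same limma test, with a median log2 fold change of -0.07. The counts of the lists were not tested against these shares. The shares are for adjusted p. At an unadjusted p under 0.05 the shares of all genes are at least as large and are not given here. Breakdown of branched-chain amino acids was the list with the lowest median, at a log2 fold change of -0.50. Of its 9 measured genes, 4 fell and 0 rose (limma; 6 lower and 1 higher at an unadjusted p under 0.05). Bckdhb, a subunit of the branched-chain ketoacid dehydrogenase, fell by 0.95 on the log2 scale (adjusted p = 0.0066). Bckdk, the kinase that switches this enzyme off, fell by 0.93 (0.0020). Ivd and Mccc2, enzymes of leucine breakdown downstream of it, fell by 0.62 (0.0072) and 0.89 (0.0167). The dehydrogenase subunit and the kinase moved the same way. Mccc2 lost its call without OGT_SCKO 3, Ctrl 1 or Ctrl 3 (0.0644 to 0.0704), and of the 4 only Bckdk kept it with slide as a block (adjusted p = 0.0385).

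Synthesis of serine, glycine, proline and asparagine had 3 of 12 genes lower and 0 higher (limma; 4 and 4 at an unadjusted p under 0.05), with a median of -0.18. Shmt2, the mitochondrial enzyme that makes glycine from serine, read -0.35, -0.30 and -0.41 in OGT_SCKO pools, against 0.67, 0.71 and 0.67 in Ctrl pools. It fell 2.06-fold (adjusted p = 0.00088), also with slide as a block (0.0194). Srr, serine racemase, fell by 0.37 (0.0406), and its call ended with slide as a block (0.264) and without any 1 pool other than OGT_SCKO 1 (0.0709 to 0.136).

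Glutamate, glutamine and GABA enzymes had 1 of 12 genes higher and 1 lower. Gpt2, the mitochondrial alanine aminotransferase, fell by 0.87 (limma adjusted p = 0.0071), and Aldh4a1, which turns a proline breakdown product into glutamate, rose by 0.46 (0.0428). Taurine and creatine synthesis also had 1 higher and 1 lower of 6. Cdo1, the dioxygenase that commits cysteine to taurine, fell 2.00-fold (0.0107), also with slide as a block (0.0284). Csad, the next enzyme on that route, rose by 0.52 (0.0295). Among carriers of other families, 3 of 12 were lower and 0 higher (4 and 0 at an unadjusted p under 0.05). Ctns, the lysosomal cystine exporter, fell by 1.09 (0.0049), Slc29a4, a monoamine carrier, by 0.83 (0.0354) and Slc25a12, the mitochondrial aspartate and glutamate exchanger, by 0.42 (0.0423). Slc29a4 was dim in the mutants, with 2 of 3 OGT_SCKO arrays well above background, and was kept only through Ctrl. With slide as a block the calls of Gpt2 (0.0832), Aldh4a1 (0.245), Csad (0.128), Ctns (0.0677), Slc29a4 (0.184) and Slc25a12 (0.242) ended. Leaving out any 1 Ctrl pool ended the calls of Aldh4a1, Csad, Slc29a4 and Slc25a12, as did leaving out OGT_SCKO 1 (Aldh4a1, Slc29a4, Slc25a12), OGT_SCKO 2 (Slc29a4) or OGT_SCKO 3 (Aldh4a1, Csad, Slc25a12), with adjusted p between 0.0560 in Slc29a4 and 0.149 in Aldh4a1. With normexp the calls of Aldh4a1 (0.0830) and Slc25a12 (0.0513) ended as well, and Slc29a4 had a log2 fold change of -0.23 (0.679).

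Amino acid sensing for mTORC1 had 4 of 19 genes higher and 3 lower. Rragb, a Rag GTPase that brings mTORC1 to the lysosome, read -5.21, -4.56 and -4.47 in OGT_SCKO pools, against -1.97, -2.12 and -1.92 in Ctrl pools. It fell (log2 fold change -2.75 ± 0.21 SE, adjusted p = 0.00045 by limma) and passed under each of 18 alternatives that gave a value. Rragb was kept only through Ctrl and gave no value with the filter on all 6 arrays. With 2 of 3 OGT_SCKO arrays well above background, its measured fold of 6.70 rests partly on signal at background. Flcn, a partner of the Rag GTPases, rose by 0.56 (0.0164), and Mtor, the kinase itself, by 0.62 (0.0350). Nprl2, a subunit of the complex that holds the Rag GTPases inactive, fell by 0.43 (0.0326). Of these only Rragb kept its call with slide as a block (Flcn 0.0866, Mtor 0.136, Nprl2 0.250). Calls also ended without OGT_SCKO 3, Ctrl 2 or Ctrl 3 for Flcn (0.0634 to 0.0721), without these or Ctrl 1 for Mtor (0.0860 to 0.109), and without any 1 pool other than OGT_SCKO 2 for Nprl2 (0.0545 to 0.119). Rragd, one of the 4 that were higher (0.0393), was kept only through OGT_SCKO and had no Ctrl array well above background. Its p rests on Ctrl signal at background. Against the mean over Ctrl arrays of the lowest signal flagged well above background, its OGT_SCKO mean was at least 1.20-fold higher. On Ctrl 2 that lowest signal, -4.65, lay above the OGT_SCKO mean of -4.80, so no rise over Ctrl 2 is bounded.

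The general control response, which cells mount when amino acids run short, had 2 of 12 genes higher and 1 lower, with a median of 0.20. Trib3, a pseudokinase target of ATF4, rose by 0.70 (limma adjusted p = 0.0056), and Ddit3, the factor CHOP, by 0.83 (0.0066). Ddit4, an inhibitor of mTORC1, fell by 0.49 (0.0445). Atf4 itself had 0.42 (0.0589) and did not pass. In the glutathione list, 1 of 8 genes was higher and 2 were lower. Gclc, the rate-limiting enzyme of glutathione synthesis, rose by 0.79 (0.0201), while Ggt7 and Ggt5, of the family that cleaves glutathione outside cells, fell by 0.85 (0.0042) and 1.01 (0.0049). With slide as a block the calls of Ggt7 (0.0498) and Ggt5 (0.0430) held and those of Trib3 (0.0732), Ddit3 (0.0806), Ddit4 (0.111) and Gclc (0.102) ended. The call of Ggt5 ended with normexp (0.0914). Gclc also lost its call without OGT_SCKO 3, Ctrl 2 or Ctrl 3 (0.0610 to 0.0800), and Ddit4 without any 1 pool other than OGT_SCKO 1 (0.0736 to 0.143) and with quantile normalisation (0.0733).

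**Figure D4:**
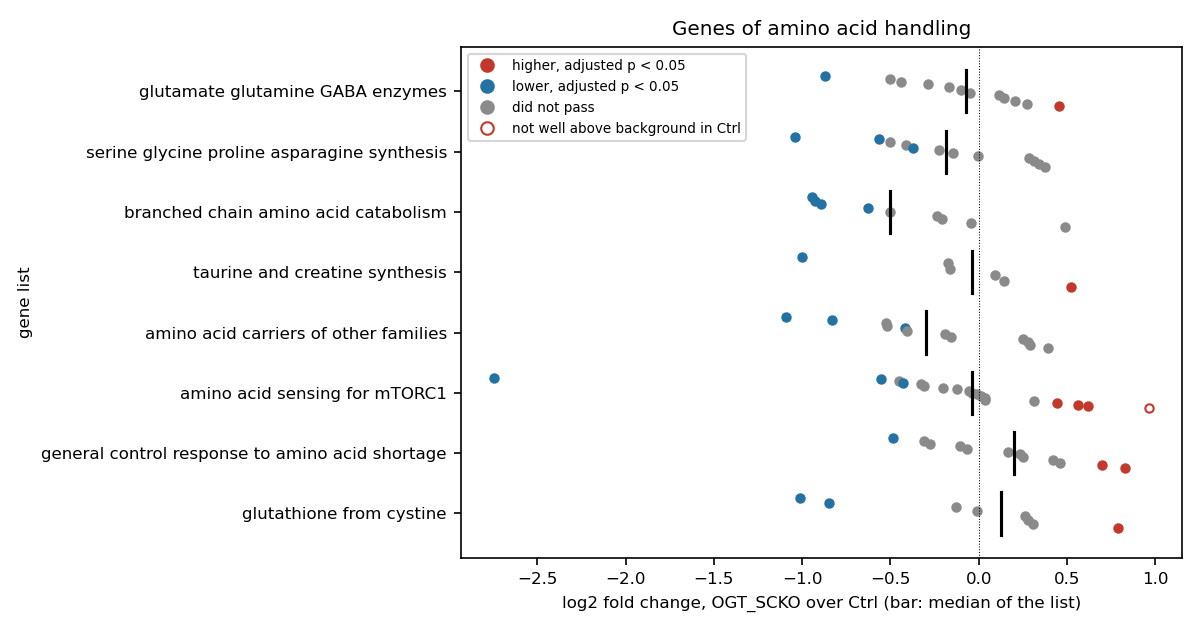
Log2 fold change of OGT_SCKO over Ctrl (horizontal axis) for each measured gene of the 8 lists (points, coloured by call; an open point is Rragd, not above background in Ctrl), with the list's median as a bar. Branched-chain amino acid breakdown has the lowest median at -0.50, and Rragb is the point at -2.75.

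The series title names JUN, a factor of the AP-1 family, so the members' promoters were searched for its motif. RefSeq promoters on GRCm38.p6, 250 bases before to 50 after a gene's start, were at hand for 30 of the 44 members. A loose form of the AP-1 motif was used, TGANTCA with any middle base, which reads the same on both strands. It was found in 4 of the 30 (Slc38a7, Slc38a10, Slc6a12 and Slc7a1), where 8.97% of all genes searched held it. The match was TGATTCA in Slc38a7, Slc38a10 and Slc6a12, and TGACTCA in Slc7a1. Of these only Slc38a7 passed the test. Promoters were at hand for 11 of the 15 members that passed, and Slc7a4, Slc43a3 and Slc6a15 were among those not searched. The core TGATGNAA of the amino acid response element, on either strand, was found in Slc1a4 and Slc7a7, where 4.51% of all genes held it, and neither passed. A match describes letters in this window and not a bound site.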

How the data were processed

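Per the file headers, Agilent Feature Extraction gave the intensity values and subtracted background and corrected trends across each array; the submitters' processing notes give version 11.5.1.1. The deposited intensity values were not scaled between arrays. A table of log2 values deposited by the authors, with equal distributions in all columns, served as an alternative; its further steps are not given in the sources used here. Arrays held 43020 non-control spots for 39429 probes, with 59.9% to 66.1% of spots well above background and 0 saturated.

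Control and outlier spots were left out, spots of a probe averaged, and log2 signals set against each array's 75th percentile. Probes that lost an array to an outlier spot were left out (40, no member). Each gene was read by its kept probe with the highest mean. Probes were named by accession through RefSeq of GRCm38.p6, which matched 80 of 84 member probes. Positions are those of the files (mm9). OGT_SCKO was compared with Ctrl by limma 3.58.1 (lmFit, eBayes; R 4.3.3) without covariates, two-sided, with Benjamini-Hochberg adjustment over 19039 genes. The fit was tested on simulated data. SE is that of the fit.

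The members and lists were chosen with earlier results of these data known. By the rule for named genes, values on every array are given for members that passed (up to 16) and for Slc1a3, Slc1a5, Slc3a2, Slc7a5, Slc7a11, Slc6a6, Slc38a2 and Slc43a3 (not for Slc7a11, which had no array well above background), and up to 4 genes of each list, those with the smallest p, are named; Rragd lies outside it and was named after its values were seen. A further 2 genes are included in the counts and are not reported here. Marker lists were adipocyte, skeletal muscle, endothelial, perineurial, fibroblast, macrophage, Schwann cell, T cell, erythroid and neuron. By the test 1 of 6 fibroblast and 1 of 5 neuron genes were lower, and of the 4 T cell and 3 erythroid genes 0 passed (limma). At an unadjusted p under 0.05, 2 T cell genes were higher and 1 lower, and 3 erythroid genes were lower. The share of all genes at that unadjusted p is not given here. The correlation of the deviations of same-numbered pools was -0.27, -0.53 and 0.06, and that of differently numbered pools ran from -0.41 to 0.46. Deviations from the mean of only 3 pools per group cannot show whether the numbers pair pools. The main fit treated the pools as unpaired. Alternatives were other scaling, background correction, filters, probe rules, variance models, slide and replicate blocks, and leaving out each pool.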

Additional observations from a re-analysis of the deposited data

How the results depend on the processing

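Against 4439 changed genes, 7 members higher, 8 lower and 27 genes of the 8 lists, no filter on dim probes gave 2632, 3, 4 and 15, slide as a fixed block 1226, 2, 3 and 7, and the shared slide alone 407, 1, 0 and 2 (limma; 5 members higher and 7 lower at an unadjusted p under 0.05). For the shared slide, the share of all genes at that unadjusted p is not given here, so those member counts show no excess over all genes. With normexp, whose offset draws dim probes together, 2715 genes changed and 5 members were lower. The replicate block gave 1480 genes, 1 member higher, 2 lower and 8 genes of the lists, and ended 12 of the 15 member calls. Leaving out 1 pool gave 1976 to 5631 genes, 2 to 7 members higher, 4 to 11 lower and 12 to 28 genes of the lists; the fewest genes came without OGT_SCKO 3. Ogt was lower in each setting and passed in all but the shared slide alone (log2 fold change -1.32, adjusted p = 0.0535). The blocked and shared-slide fits compare with Ctrl 2 alone, assumed to vary like the other pools, and a fit with fewer pools is less precise. Calls were split 2127 higher and 2312 lower, and 2576 and 2344 with quantile normalisation.

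The sign turned in 6 members, each not passed in any setting. Slc7a2 was 0.027 with normexp and -0.34 to 0.00091 without 1 pool. Slc36a1os was 0.012 with normexp and 0.17 with slide as a fixed block or the shared slide alone, and -0.28 to 0.063 without 1 pool. Slc38a3 was -0.23 with the fixed block or the shared slide, and -0.040 to 0.30 without 1 pool. Slc1a1 was 0.017 with normexp and 0.061 with the fixed block or the shared slide, and -0.33 to 0.17 without 1 pool. Slc38a1 was 0.026 with quantile normalisation, 0.00098 with median scaling, 0.075 with normexp, 0.076 as the mean of its probes and 0.025 with the deposited values, and -0.20 to 0.10 without 1 pool. Slc7a1 was -0.020 with slide as a random block, and -0.10 to 0.080 without 1 pool. The cause was not tested. Signal over background limits Slc6a3, Slc36a4, Slc38a5 and Slc1a1.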
